A study of Mus musculus with 4 samples.

Results

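ATP-binding cassette (ABC) transporter genes were followed in mouse pancreatic cancer cells of the C57BL/6 strain, with and without halofuginone. The genes were chosen by symbol alone, from Abca, Abcb and so on to Abcg followed by a number and at most 1 further letter, which gave 50 of the 36918 gene names on the array. There were 4 arrays: for cells called K5, and likewise for cells called K6, there was 1 array of control cells given the solvent DMSO and 1 of cells given 100 nM halofuginone during 24 hours. K5 and K6 are called lines below, although the sources used here do not say how they differ. The sample titles end the names of the halofuginone arrays in H, where the design text writes F for the arrays it compares with controls; the titles were followed. The series title concerns Nrf2, a transcription factor of the response to oxidants, and sensitivity to gemcitabine. Halofuginone blocks the charging of proline onto its transfer RNA. The labels name no separate cultures, so the spread between samples may be technical, and every p-value below concerns only these 4 arrays.

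ABC transporters use ATP to move lipids, sterols, bile salts, heme, peptides and drugs across membranes. Subfamilies A, B, C, D and G hold the transporters, whereas the proteins of E and F have the ATP-binding domains without a membrane part and act on ribosomes. In tumour cells a few members, called drug efflux pumps, export chemotherapeutics, and several of their genes, among them Abcc2, Abcc3 and Abcc4, are textbook targets of Nrf2. Subfamily F includes relatives of the yeast protein Gcn20, a partner in the activation of Gcn2, the kinase that senses uncharged transfer RNA.

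The arrays carried 111 probes for the 50 genes, each read by 1 spot. A gene was read by the probe with the highest mean signal over the 4 arrays, and statements on a gene below are about that probe unless another is mentioned. Levels are log2 signals from which each array's own 75th percentile was subtracted, so 0 stands for that percentile. A level does not compare between genes, because each probe binds with its own strength. Of the 50 genes, 36 were well above background on at least 2 arrays and were tested, 5 were so on 1 array and 9 on none. By subfamily, 9 of 16 genes were tested in A, 8 of 10 in B, 7 of 10 in C, 3 of 4 in D, the single gene of E, 3 of 3 in F and 5 of 6 in G.

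The results turn on a few probes. That of Abcc1 is shown as the pump at least 2-fold higher in both lines after halofuginone, that of Abcg2 as the pump with the smallest difference, and that of Abca15 because its changes differed most between the lines. On mm9, the build of the files, they lie at chr16:14473598-14473657 (plus strand), chr6:58642312-58642371 (plus strand) and chr7:127476286-127476345 (plus strand), in that order.
Abcc1: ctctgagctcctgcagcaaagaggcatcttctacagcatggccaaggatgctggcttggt
Abcg2: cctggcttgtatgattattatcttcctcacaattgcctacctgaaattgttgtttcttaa
Abca15: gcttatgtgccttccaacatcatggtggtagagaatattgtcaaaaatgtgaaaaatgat

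Promoters were searched because the study concerns Nrf2 and because halofuginone acts through transfer RNA charging. The letters TGACNNNGC, the core of the element that Nrf2 binds, and TGATGNAA, which composite elements for C/EBP and ATF factors hold, were searched on both strands of RefSeq promoter windows (build GRCm38.p6) from 250 bases before to 50 after a start site. There were 45 such windows, for 38 of the 50 genes. TGACNNNGC stood in 7 of the 45 (15.6%), for Abca8b, Abcb1a, Abcc2, Abcc4 and Abcc10, against 12.4% of all 32851 windows. TGATGNAA stood in 1 (Abca13) against 3.97% of all windows. The stretches of Abcc2 and Abcc4 before their start sites are shown because both are pump genes and their readings went opposite ways, with the TGACNNNGC match of either strand in capitals. They lie at chr19:43782184-43782244 (plus strand) for Abcc2, and at chr14:118676932-118676980 and chr14:118706220-118706270 (both minus strand) for the 2 start sites of Abcc4.
Abcc2: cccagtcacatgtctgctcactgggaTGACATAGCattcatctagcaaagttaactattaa
Abcc4, first start: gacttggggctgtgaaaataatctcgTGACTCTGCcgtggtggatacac
Abcc4, second start: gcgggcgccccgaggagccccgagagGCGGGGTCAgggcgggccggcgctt
A match of letters is a description of the window and not a binding site.

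No spot was saturated, and the share of spots well above background ran from 47.2% to 54.0% over the arrays. The lowest level that counted as well above background was -4.17 and -4.25 on the control arrays and -4.92 and -5.01 on the halofuginone arrays. Of the 50 ABC genes, 35 without and 34 with halofuginone were well above background in K5, and 36 without and 39 with it in K6. All 8 epithelial and ductal markers examined, keratins, Epcam and Cdh1 among them, were well above background on all 4 arrays, and 0 of them passed the test for halofuginone (limma; 0 also at an unadjusted p under 0.05). Their summed level, log2 of the sum of their linear values, was 9.44 to 9.82 in controls and 9.92 to 9.93 after halofuginone. Of 7 immune markers 5 were tested and 2 fell, Cd14 and Cd68 (limma), with 3 lower and 0 higher at an unadjusted p under 0.05. Ptprc went the other way (0.61, SE 0.34), while Itgam had -0.29 (SE 0.26) and Csf1r -1.15 (SE 0.26), none of which passed. The summed level of the 7 was 4.79 to 4.91 in controls and 3.28 to 3.73 after halofuginone, with Adgre1 and Lyz2 above background on no array. Of 5 acinar markers 4 were above background on no array (Cpa1, Prss1, Amy2a5 and Ptf1a), and Cela1, the only one tested, fell; the summed level was 1.1 to 1.82 in controls and -1.38 to -0.60 after halofuginone. Of 5 endothelial markers 1 was tested, Kdr, and it rose. Kdr was well above background on 3 of 4 arrays and not in control K5, at -6.35. Cdh5 was above background on no array, and the summed level of the 5 was -3.61 to -2.97 in controls and -2.85 to -0.65 after halofuginone. Of 7 fibroblast markers 3 were tested and 0 passed (0 at an unadjusted p under 0.05), with Pdgfrb and Lum above background on no array, and the summed level was -1.92 to -1.42 in controls and -2.98 to -1.35 after halofuginone. The part of these markers in the results below was not tested.

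The first comparison asks which ABC genes differ between halofuginone and control, with the line as a block. Of the 36 tested genes 2 fell, Abca3, a lipid transporter of lamellar bodies, and Abcd4, a lysosomal transporter of cobalamin. None rose. The share that fell, 5.56%, lies near the 5.08% of all 19093 tested genes that were lower, and the 0 that rose compare with 3.88% higher among all genes, so these counts do not set the ABC genes apart from the rest. At an unadjusted p under 0.05, 10 were lower and 5 higher (limma), where 16.9% of all genes were lower and 17.2% higher. The median change over the 36 genes was -0.24, beside 0.01 over all tested genes. In a population of cells, fewer cells of a kind and less RNA per cell cannot be told apart.

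Abca3 read 3.99 without and 2.31 with halofuginone in K5, and 4.34 without and 2.43 with it in K6. Both halofuginone arrays lay below both controls. On the log2 scale Abca3 fell by 1.80 (limma over both lines, SE 0.26, Benjamini-Hochberg adjusted p = 0.044), a 3.48-fold difference, on a probe at mm9 chr17:24547066-24547125.

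Abcd4 read 1.53 without and -0.09 with halofuginone in K5, and 1.36 without and -0.97 with it in K6. Here too the groups did not overlap, with the lowest reading in halofuginone K6. It fell by 1.98 (SE 0.31, limma adjusted p = 0.047), a 3.94-fold difference, on a probe at chr12:85943772-85943831. No gene of the 19093 passed in either direction without the line block, on leaving out any 1 array, when all genes were tested, with dim values raised to a common limit or with the percentile taken over probes bright on all 4 arrays. The loss of the calls under these settings is therefore not particular to ABC genes, and every call after halofuginone given here, of markers and linked genes too, is lost with them. Without the line block the adjusted p was 0.094 for Abca3 and 0.11 for Abcd4, and leaving out any 1 array, which also removes the block, gave 0.133 to 0.41 and 0.099 to 0.431. The p-values of both were also above the threshold when all genes were tested (0.067 and 0.075), with dim values raised to a common limit (0.104 for both), with the mean over probes (0.099, at a change of -1.0, and 0.055) and with the percentile taken over probes bright on all 4 arrays (0.058 and 0.062), whereas centring each array on its median called 3 ABC genes lower and 1 higher, among 1445 and 1020 of all genes.

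Each change within a line sets 1 array against 1 other and has no test. In K5, 10 ABC genes were at least 2-fold lower and 4 at least 2-fold higher; the shares over all tested genes were 14.9% and 14.1%, and over ABC genes 27.8% and 11.1%. In K6, 9 were at least 2-fold lower and 6 higher as read (Abca15 among the latter, against a control not well above background), 25.0% and 16.7%, beside 16.4% and 16.4% of all genes. In both lines at once 6 genes were at least 2-fold lower (Abca3, Abca4, Abcb8, Abcc2, Abcc3 and Abcd4), 16.7% beside 9.62% of all genes, and 2 at least 2-fold higher (Abcc1 and Abce1), 5.56% beside 8.59%. Of the 36 genes 18 were lower in both lines and 7 higher in both, beside 7252 and 7393 of the 19093 genes, and 11 (30.6%) went opposite ways, beside 23.3% of all tested genes. Both halofuginone arrays lay below both controls for 13 genes (36.1%, beside 28.6% of all) and above them for 7 (19.4%, beside 30.0%).

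**Figure D1:**
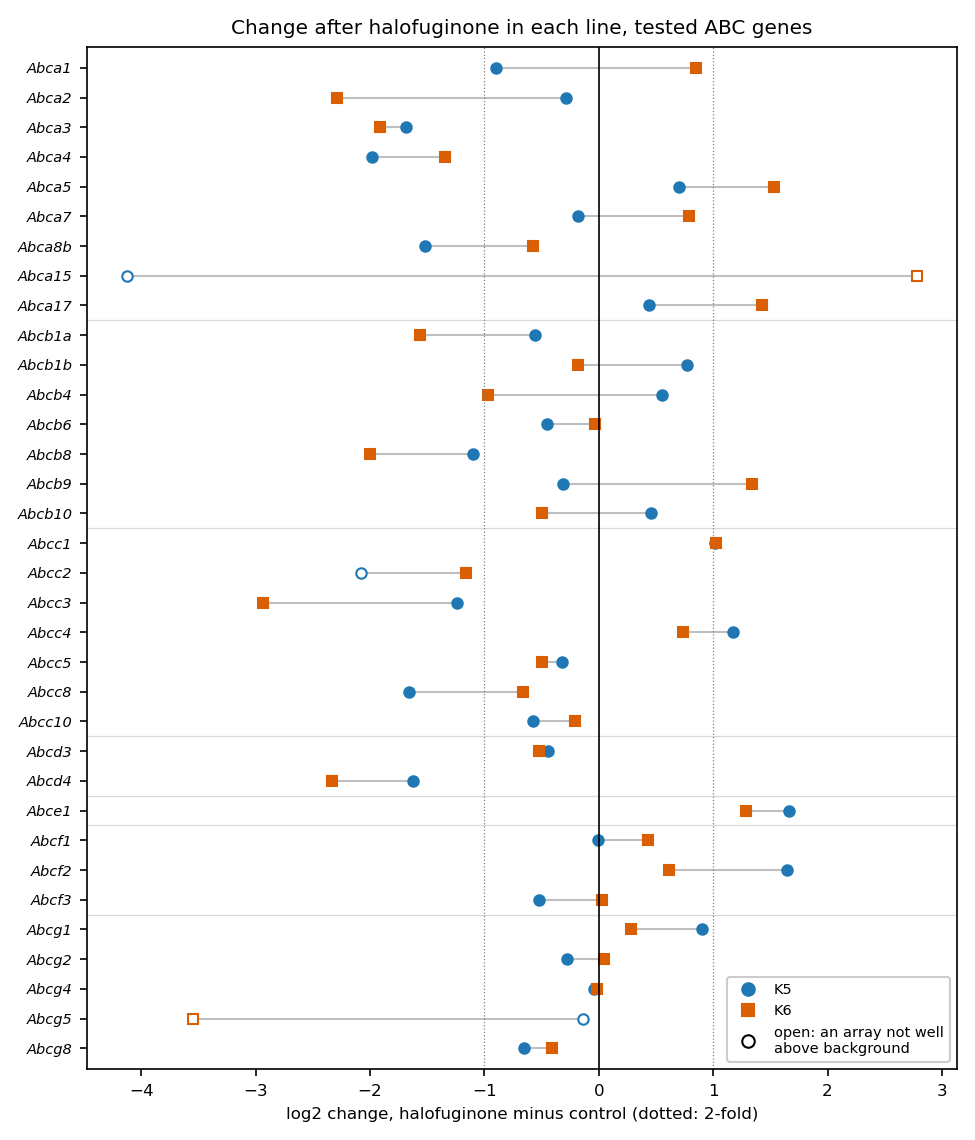
Change after halofuginone for 34 of the 36 tested ABC genes in subfamily order. The x axis is the log2 change within a line, circles are K5 and squares K6 with 1 array per condition, dotted lines mark 2-fold and open symbols mark a change that involves an array not well above background. Abca3, Abcd4, Abcb8 and Abcc3 lie to the left of -1 in both lines, Abcc1 and Abce1 to the right of 1, and the open symbols of Abca15 lie at -4.13 and 2.79 as read.

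Across the 36 genes, which are not independent replicates and share arrays and scaling, the changes in K5 and K6 correlated at Pearson r = 0.22 and Spearman rho = 0.48. Over all tested genes these values were 0.69 and 0.70. Abca15 weighs on the first pair: over the other 35 genes r was 0.56 and rho 0.62. The signs agreed in 69.4% of the ABC genes and in 76.7% of all tested genes.

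**Figure D2:**
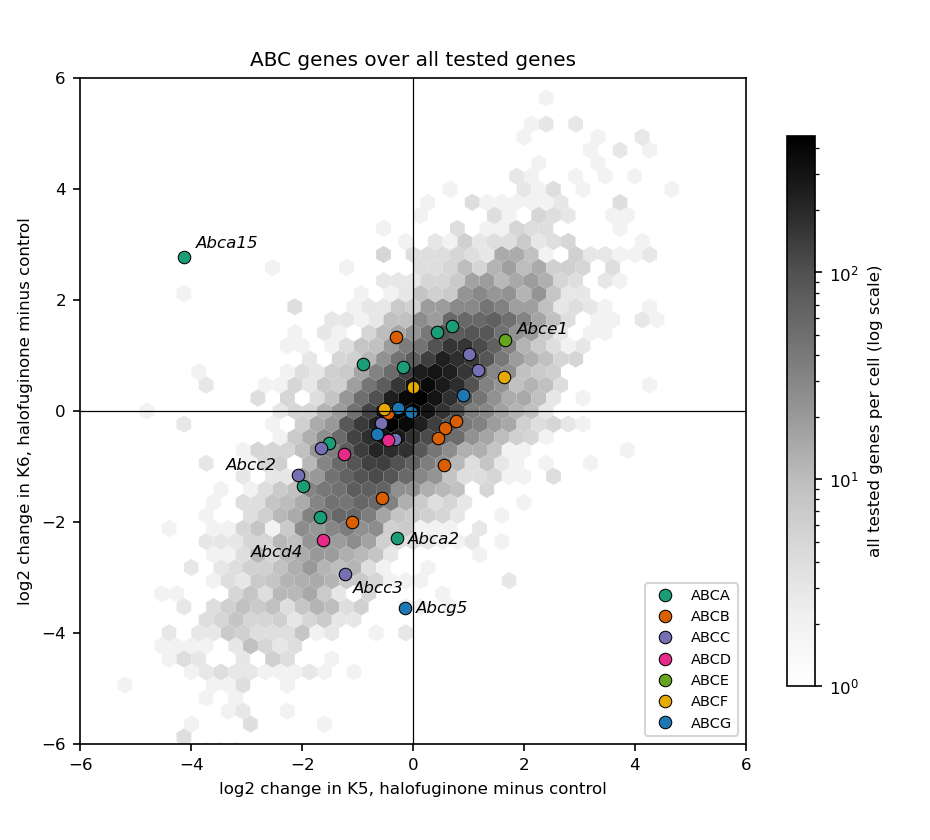
Log2 change after halofuginone in K5 (x axis) against K6 (y axis). Coloured points are the 36 tested ABC genes by subfamily and grey cells count all 19093 tested genes on a log scale. Most ABC genes lie within the grey cloud, Abca15 stands far to the upper left at -4.13 and 2.79, and Abcg5 and Abca2 lie low near the vertical axis.

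The drug efflux pumps, set apart here, are Abcb1a and Abcb1b, the mouse genes for P-glycoprotein, Abcc1 to Abcc5, which export conjugates, bile salts and nucleotide analogues, and Abcg2, the breast cancer resistance protein. All 8 were tested, and 0 passed in either direction (limma). At an unadjusted limma p under 0.05, 3 were lower (Abcb1a, Abcc2 and Abcc3) and 2 higher (Abcc1 and Abcc4), beside 16.9% and 17.2% of all genes. In both lines 4 of the pumps were lower and 2 higher, beside 7252 and 7393 of the 19093 genes. The other 2 went opposite ways, as did 23.3% of all tested genes. The median of the 8 changes was -0.30 for K5 and -0.34 for K6, beside -0.03 and 0.04 over all tested genes.

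Abcc1, an exporter of glutathione conjugates, read 1.06 without and 2.08 with halofuginone in K5, and 1.02 without and 2.04 with it in K6. Both halofuginone arrays stood above both controls, by 1.01 in K5 and 1.03 in K6. The difference of 1.02 (SE 0.26) did not pass (limma adjusted p = 0.083), and a dimmer second probe read changes of 0.26 and 0.06, so the probes of this gene disagreed in size.

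Abcc4, which exports cyclic nucleotides and nucleotide analogues, read 2.51 without and 3.68 with halofuginone in K5, and 2.60 without and 3.34 with it in K6. The halofuginone arrays again lay above the controls. Its difference was 0.96 (SE 0.28, limma adjusted p = 0.10).

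Abcc3, a basolateral exporter of organic anions, had the largest difference among the pumps. It read 4.0 without and 2.76 with halofuginone in K5, and 3.54 without and 0.61 with it in K6, with no overlap between the groups. The difference was -2.08 (SE 0.50, limma adjusted p = 0.077), on a probe at chr11:94204612-94204671. A second, dimmer probe at chr11:94225685-94225744, read a change of -0.26 in K5, and in K6 it was well above background in control but not after halofuginone.

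Abcc2, the apical exporter of bilirubin conjugates, read -2.69 without and -4.78 with halofuginone in K5, and 0.11 without and -1.05 with it in K6. It was lower after halofuginone within each line, but the groups overlap because K6 read far above K5. The difference was -1.62 (SE 0.34, limma adjusted p = 0.065). Its reading in halofuginone K5 was not well above background, so the change in K5 rests on a dim reading, with control 4.23-fold above halofuginone as read. Folds given below as at least a value set the bright array against the higher of the dim array's limit and its own reading. The limit is the array's lowest level well above background. The dim Abcc2 reading of -4.78 lay above that limit of -4.92, so these bounds are approximate.

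Abcb1a read 1.44 without and 0.88 with halofuginone in K5, and 1.01 without and -0.55 with it in K6. Both halofuginone arrays lay below both controls, and the difference was -1.06 (SE 0.36, limma adjusted p = 0.13). Its neighbour Abcb1b read 2.04, 2.82, 0.31 and 0.13 on the same arrays in the same order, higher after halofuginone in K5 and slightly lower in K6 (0.30, SE 0.35, adjusted p = 0.59). A second probe of Abcb1b changed by 0.81 in K5 and was not well above background in K6. The 2 genes are close paralogs, and the probes were not set against the other gene's transcript, so single values are uncertain.

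Abcc5, an exporter of nucleotide analogues, read 1.16 without and 0.84 with halofuginone in K5, and 2.38 without and 1.88 with it in K6. Its difference was -0.41 (SE 0.26, limma adjusted p = 0.33). All 6 of its probes were well above background, and their changes ran from -2.88 to 0.34 in K5 and from -0.50 to 0.19 in K6.

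Abcg2 read 1.93 without and 1.65 with halofuginone in K5, and 2.57 without and 2.62 with it in K6. The groups overlapped, and the difference was -0.11 (SE 0.27, limma adjusted p = 0.79).

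**Figure D3:**
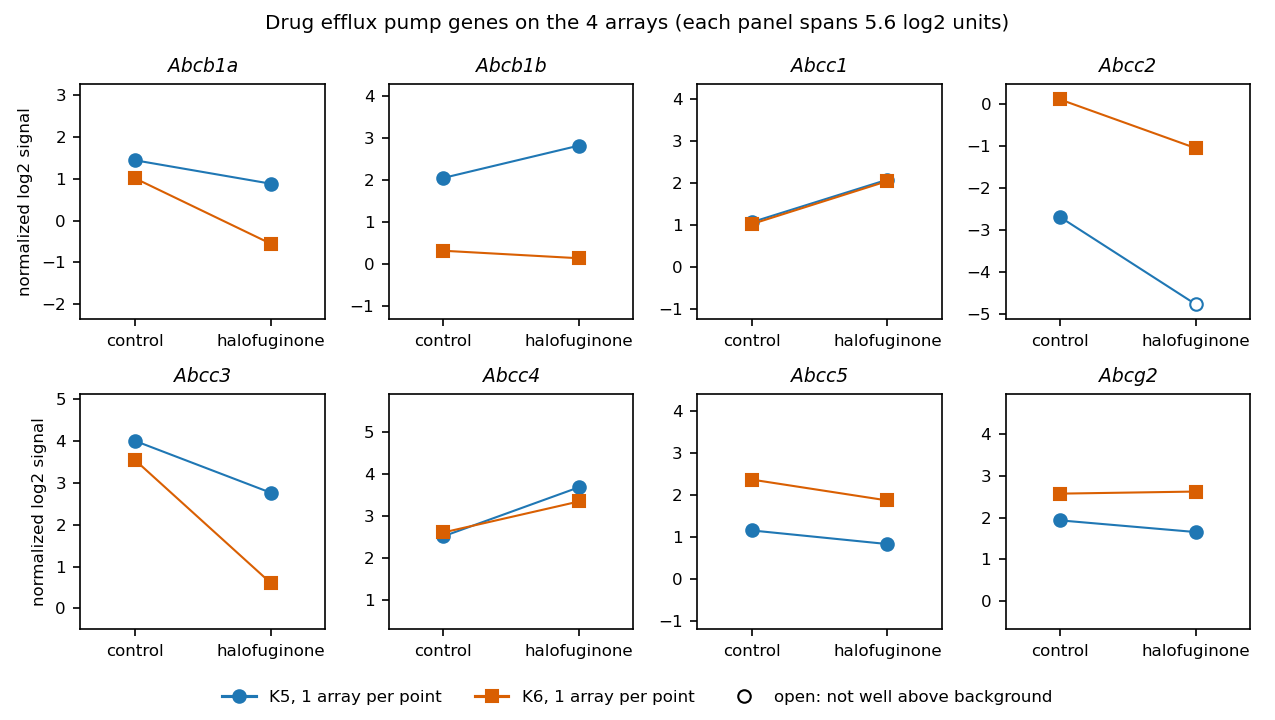
Normalized log2 signal of the 8 drug efflux pump genes on the 4 arrays, 1 panel per gene, all panels of equal height in log2 units. Circles are K5 and squares K6, lines join control and halofuginone of a line, and the open circle is a reading not well above background. Abcc1 and Abcc4 slope upward and Abcb1a, Abcc2 and Abcc3 downward in both lines, while the Abcc2 and Abcb1b lines of K5 and K6 lie well apart.

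In subfamily A, transporters mostly of lipids and sterols, Abca3 alone of the 9 tested genes passed. The median change of the 9 was -0.67 in the fit, which is the value of Abca15 (SE 1.75), well above background on 2 arrays. Within the lines the medians had opposite signs, -0.90 in K5 and 0.79 in K6. Abca4, known from the retina as a retinoid flippase, read -2.51 without and -4.49 with halofuginone in K5, and -2.89 without and -4.23 with it in K6. The groups did not overlap, but the difference of -1.66 (SE 0.30) did not pass (limma adjusted p = 0.053). Abca2, a transporter of lysosomal lipids, read -0.12 without and -0.41 with halofuginone in K5, and 0.13 without and -2.16 with it in K6, so that 1 array stood well below the other 3 (-1.29, SE 0.56, limma adjusted p = 0.20).

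Abca1, which loads cholesterol onto apolipoproteins, went opposite ways in the lines. It read -1.87 without and -2.76 with halofuginone in K5, and -2.8 without and -1.95 with it in K6, and its difference over both lines was -0.02 (SE 0.51, limma adjusted p = 0.98). Abca5 had 2 probes well above background on all 4 arrays, and both were higher after halofuginone in both lines, by 0.71 and 1.82 in K5 and by 1.53 and 1.95 in K6. Another probe was well above background on the halofuginone arrays alone. Its brightest probe gave 1.12 (SE 0.33, limma adjusted p = 0.11). Abca17, next to Abca3 on chromosome 17, gave 0.93 (SE 0.36, limma adjusted p = 0.16), opposite in sign to its neighbour.

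Abca15 had the largest gap between the lines. It read -3.02 without and -7.14 with halofuginone in K5, and -6.47 without and -3.68 with it in K6, and only the first and the last were well above background. In K5 control was at least 3.75-fold above halofuginone, and in K6 halofuginone at least 1.48-fold above control. All of this rests on 1 probe and 1 spot per array. At their brightest probes the neighbours Abca14 and Abca16 on chromosome 7 were each well above background on 1 array, Abca14 in halofuginone K6 and Abca16 in control K6, and a dimmer Abca14 probe was so in halofuginone K5.

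In subfamily B, which also holds the bile salt and phosphatidylcholine pumps and the mitochondrial transporters, 0 of 8 tested genes passed (limma; 2 lower at an unadjusted p under 0.05, Abcb1a and Abcb8). Abcb8, a transporter of the inner mitochondrial membrane, read 2.66 without and 1.56 with halofuginone in K5, and 2.81 without and 0.80 with it in K6. The groups did not overlap, and the difference was -1.55 (SE 0.34, limma adjusted p = 0.069). Its second passing probe changed by -0.94 in K5 and -1.68 in K6. Abcb10, a mitochondrial member linked to heme, gave -0.02 (SE 0.35), and Abcb6, a porphyrin transporter, -0.24 (SE 0.28). Abcb9, a lysosomal peptide transporter, gave 0.51 (SE 0.49), with -0.32 in K5 and 1.34 in K6. Abcb11, the bile salt pump, was not tested: it was well above background in halofuginone K6 alone, at -2.17, at least 4.23-fold above control K6.

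In subfamily C outside the pumps, Abcc8, the sulfonylurea receptor, gave -1.16 (SE 0.36, limma adjusted p = 0.12) with -1.66 in K5 and -0.66 in K6, and Abcc10 gave -0.39 (SE 0.27). Abcc6 and Abcc12 were not well above background at their brightest probe on any array, and Abcc9, another sulfonylurea receptor, was so in halofuginone K6 alone, at -4.16. An Abcc6 probe of lower mean signal was well above background in control K5 alone, at -4.05, and read -7.20 in halofuginone K5.

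Subfamily D acts in peroxisomes, except for Abcd4. Abcd3, which imports branched and long chain fatty acids, was lower in both lines, by a difference of -0.49 that did not pass (SE 0.26, limma adjusted p = 0.26). Abcd2 was above background on no array.

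Abce1 splits terminated or stalled ribosomes into subunits. It read 2.15 without and 3.81 with halofuginone in K5, and 2.75 without and 4.04 with it in K6, so both halofuginone arrays stood above both controls. The difference of 1.48 (SE 0.27), or 2.79-fold, did not pass (limma adjusted p = 0.054). In subfamily F, Abcf2 gave 1.13 (SE 0.36, limma adjusted p = 0.12), with 1.65 in K5 and 0.61 in K6. Abcf1, a factor of translation initiation, gave 0.21 (SE 0.28), its 5 probes reading between -0.01 and 0.33 in K5 and between 0.25 and 0.51 in K6, and Abcf3, a Gcn20 relative, gave -0.24 (SE 0.29).

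In subfamily G besides Abcg2, the sterol exporter Abcg1 gave 0.60 (SE 0.30) and Abcg4 -0.03 (SE 0.26), although a dimmer Abcg4 probe was well above background on the halofuginone arrays alone. Abcg5 and Abcg8 are adjacent genes whose products form a single plant sterol exporter. Abcg8 gave -0.53 (SE 0.26, limma adjusted p = 0.24). Abcg5 read -4.44 without and -4.59 with halofuginone in K5, and -3.24 without and -6.78 with it in K6. Halofuginone K5 and control K6 alone were well above background, so no change is given in K5, and in K6 control was at least 3.42-fold above halofuginone.

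The second comparison sets K6 against K5 with treatment in the fit. Of 36 tested ABC genes 0 passed (limma; 4 higher and 4 lower at an unadjusted p under 0.05), beside 0.173% of all tested genes. The 4 and 4 genes are 11.1% of the 36 each, where 7.64% of all genes were higher and 7.90% lower at that level. Abcc2 had the largest difference, 3.26 higher in K6 (SE 0.34, 9.61-fold, adjusted p = 0.068), with both K6 arrays above both K5 arrays; 1 of the 2 K5 arrays was not well above background, so the size rests in part on a dim reading. Abca8b was lower in K6 by a difference of -2.40 (SE 0.35, adjusted p = 0.10), with its levels in K6 apart from those in K5 under both treatments (-2.87 in control and -1.92 after halofuginone).

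The 3 neighbours on chromosome 5, Abcb1a, Abcb1b and Abcb4, were all lower in K6. Abcb1b gave -2.21 (SE 0.35, limma adjusted p = 0.12), Abcb4, the phosphatidylcholine flippase of bile, -1.96 (SE 0.46, adjusted p = 0.21), and Abcb1a -0.93 (SE 0.36, adjusted p = 0.34). For Abcb1b and Abcb4 the lines did not overlap; for Abcb1a they did. Without overlap and higher in K6 were also Abcc5 (1.13, SE 0.26, adjusted p = 0.20), with 5 of its 6 probes higher in K6 under both treatments, Abca7 (1.43, SE 0.35, adjusted p = 0.22) and Abcg2 (0.80, SE 0.27, adjusted p = 0.30). Abcc8 was lower in K6 (-1.37, SE 0.36, adjusted p = 0.24). Lines without overlap were seen for 4 ABC genes higher and 6 lower in K6, 11.1% and 16.7%, beside 14.0% and 14.8% of all genes. Abcc1 (-0.04, SE 0.26) and Abcc4 (-0.12, SE 0.28) differed between the lines by less than their errors. The second probe of Abcc1 read higher in K6, by 0.83 in control and 0.63 after halofuginone, and the mean over probes turned the direction of Abcc1 to 0.34.

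**Figure D4:**
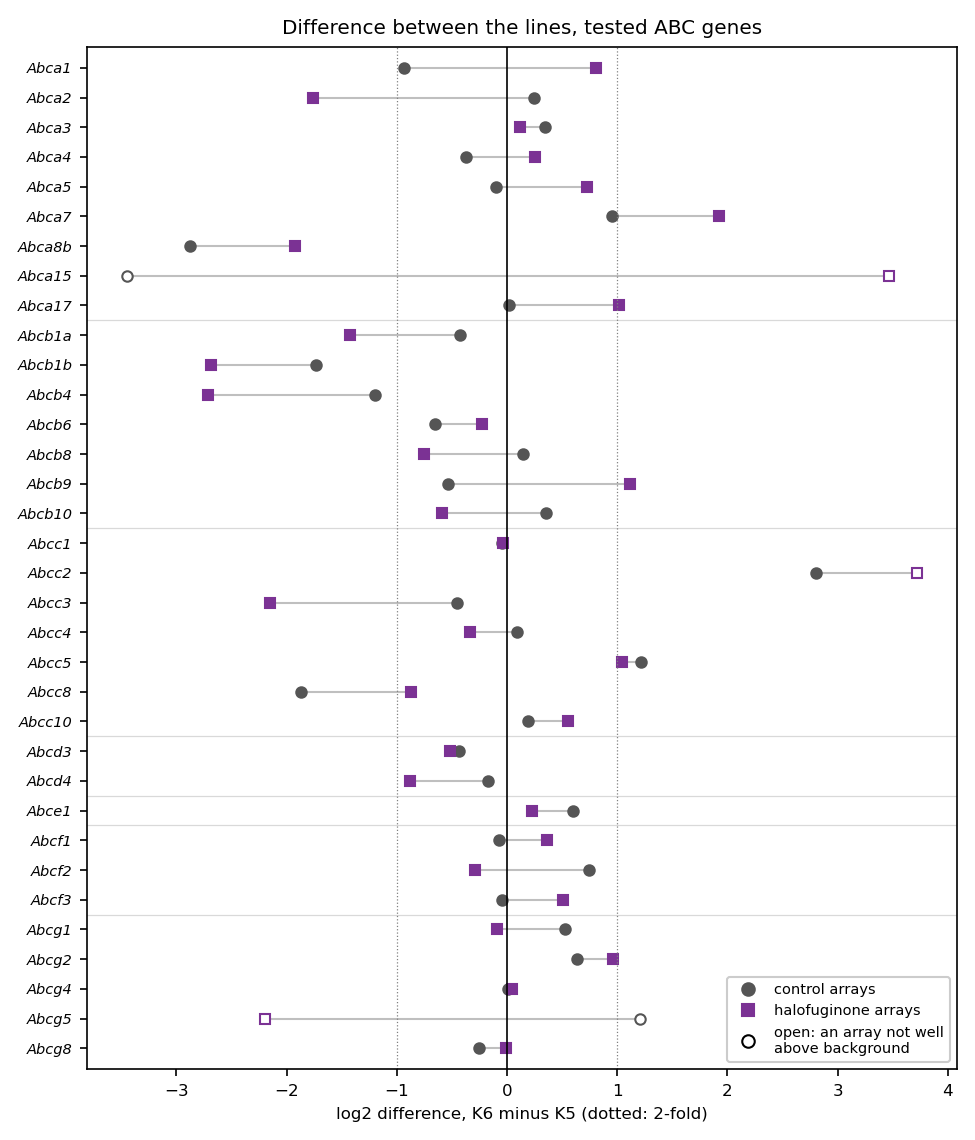
Difference between the lines for 34 of the 36 tested ABC genes. The x axis is K6 minus K5 in log2 units, circles compare the 2 control arrays and squares the 2 halofuginone arrays, dotted lines mark 2-fold and open symbols mark a pair with an array not well above background. Abcc2 lies far to the right at 2.8 and 3.72, Abca8b, Abcb1b and Abcb4 to the left of -1 under both treatments, and Abca15 at -3.45 and 3.46.

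Genes linked to these transporters were read in the same fit. Of all tested genes, 3.88% rose and 5.08% fell past the threshold. At an unadjusted limma p under 0.05 the shares were 17.2% higher and 16.9% lower. The Abcc pumps export glutathione conjugates. Among 11 tested genes of glutathione synthesis, reduction and conjugation, 6 fell and 0 rose (median -2.70). They include the glutathione S-transferases Gsta3, which fell by 4.74 (SE 0.78, limma adjusted p = 0.048), Gsta4, which fell by 4.36, and Gstm2, which fell by 4.34 with 3 of 4 arrays above background. These genes have close paralogs, so single values are uncertain. Gclc, of glutathione synthesis, had -1.37 and did not pass (adjusted p = 0.068). Of 14 tested regulators of pump genes 1 fell, Nr1i2, the xenobiotic receptor PXR, by 3.08 (SE 0.26, limma adjusted p = 0.036), with 3 of 4 arrays above background, and 0 rose. Nfe2l2, which encodes Nrf2, had 0.34 (SE 0.26, adjusted p = 0.42).

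Of 8 tested genes of ribosome recycling and Gcn2 activation, partners of Abce1 and of the F subfamily, Etf1, a release factor, rose by 1.76 (SE 0.26, limma adjusted p = 0.045) and 0 fell (7 higher at an unadjusted p under 0.05); Gcn1l1, for Gcn1, had 0.77 (adjusted p = 0.14). Of 10 tested peroxisomal genes Pex19, the import receptor for peroxisomal membrane proteins, fell by 1.81 (SE 0.31, limma adjusted p = 0.0497) and 0 rose. Of 5 tested peptide loading genes Tapbp, tapasin, fell by 2.18 (SE 0.30, limma adjusted p = 0.044) and 0 rose. The ABC peptide transporter genes carry other symbols: Tap2 had -1.98 with 3 of 4 arrays above background and did not pass (SE 0.34, adjusted p = 0.051), Tap1 was above background on no array, and Cftr, an ABC chloride channel, had -0.32.

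Of 12 tested sterol genes 0 passed (limma; 1 higher and 5 lower at an unadjusted p under 0.05), and Nr1h3, the receptor LXR alpha that drives Abca1, had -1.51 (SE 0.34, adjusted p = 0.072). Of 10 tested genes of heme and iron-sulfur synthesis 0 passed (3 higher and 3 lower unadjusted), with Fech, ferrochelatase, at -1.17 (SE 0.26, adjusted p = 0.071). Of 9 tested genes of nucleoside uptake and gemcitabine activation 0 passed (2 higher and 1 lower unadjusted), with the carrier Slc29a1 at 0.90 (SE 0.27, adjusted p = 0.11). The channel genes Kcnj8 and Kcnj11, partners of the sulfonylurea receptors, were not tested. The share of all tested genes past the threshold was 8.96%.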

How the data were processed

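Labelled RNA of each sample (Cy3, after amplification) was read on its own 1-colour Agilent array, per the labels' protocols. Spots were quantified with Agilent Feature Extraction, version 10.7.1.1 per the file headers and version 9.5.1.1 per the submitters' processing notes. The deposited intensity used is the processed signal, background-subtracted and detrended within an array; other deposited flags (0 or 1) mark spots well above background, saturated or outliers. The authors' deposited value table, on a linear intensity scale with its normalization step not given in the sources used here, served as an alternative. Control spots and outliers were left out, and probes without a value on every array (301 of 56605, none of them for an ABC gene) were dropped.

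The 19093 genes that reached well above background on 2 or more arrays were fitted with limma 3.58.1 in R 4.3.3 (lmFit, eBayes), with line and treatment as terms, Benjamini-Hochberg adjustment over all tested genes and a threshold of 0.05. The fit was checked on simulated data. It has 1 residual degree of freedom and 2.97 prior ones, so each SE leans on a variance pooled over genes. The residual is the difference between the changes in K5 and in K6, so a response that differs between the lines adds to the SE. The lines pair the arrays, since a number names the same cells, and the design text compares halofuginone with control within each. The difference between lines in controls correlated with that after halofuginone, at r = 0.50 over all tested genes and 0.26 over the 36 tested ABC genes. All arrays lay on 1 slide. The number of arrays limits the precision. A permutation test of 2 arrays against 2 cannot go below p = 0.333, so none was used. The smallest fold past the threshold was 2.80.

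Genes given with values were the 8 pumps, those past the threshold, those at least 2-fold changed the same way in both lines and the 3 with the largest gap between lines; Abca1, Abca5, Abca7, Abca8b, Abca17, Abcb4, Abcb6, Abcb9, Abcb10, Abcb11, Abcc8, Abcc10, Abcd3, the F and G members and the dim genes were added after their values were seen, to cover each subfamily. Of the linked lists, the first gene and up to 3 passing genes were named; Tap2 and Cftr were added after their values were seen. Single values of some genes are not reported here, although the genes count among those tested. The members and lists were chosen with earlier results of these data known. All 50 symbols are current in the RefSeq gene table, 44 matched by accession. Alternatives covered the scaling, background correction, dim values, the filter, the choice of probe, a variance trend, the line block and leaving out arrays.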

Additional observations from a re-analysis of the deposited data

Results flagged for a closer look

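Abca1 and Abca15 read in opposite directions in the lines. With a single array for each line and treatment, this difference was not tested. Abca1 changed by -0.90 in K5 and 0.85 in K6, a difference of 1.75. For Abca15 the readings gave -4.13 in K5 and 2.79 in K6, a difference of 6.91, but 1 of 2 arrays in each line was not well above background, so these are not measured changes; the bounds are control at least 3.75-fold above halofuginone in K5 and halofuginone at least 1.48-fold above control in K6.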

How the results depend on the processing

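The count of ABC genes past the threshold moved with the processing. After halofuginone 2 were lower and 0 higher; normexp gave 9 lower and 5 higher, the filter on all 4 arrays 7 and 5, a trend 6 and 3, and median centring 3 and 1. The counts over all genes rose too, from 970 lower and 740 higher to 2853 and 2575, 2103 and 1909, 2161 and 2039, and 1445 and 1020. The lower count was 0 with the percentile over bright probes, with dim values at 1 limit, with no filter, over mean values of probes, without the replicate block, and on leaving out any array (0 to 0); over all genes it was 368 with mean values of probes and 0 under each of the others. For K6 against K5, with 0 and 0, normexp gave 3 higher and 4 lower, the trend 1 and 1, median centring 1 higher and the filter on all 4 arrays 2 lower. Over all genes these counts rose from 11 higher and 22 lower to 587 and 722, 134 and 159, 116 and 182, and 145 and 160, in that order. Quantile normalization and the authors' table called the same 2 lower genes, Abca3 and Abcd4. Testing all 50 genes gave 10 at least 2-fold higher in K6 as read, in place of 6. The added genes, Abca9, Abca14, Abcb11 and Abcc9, were set against a control not well above background. Their bounds were 1.92-fold, 1.33-fold, 4.23-fold and 1.07-fold in that order, so only that of Abcb11 reached 2-fold. The percentile over bright probes shifted the median of all genes by -0.12. Without the block every call over all genes was lost, in both comparisons. Causes were not tested.

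Reversed were the K6 minus K5 values of Abca15, 0.01 in the fit (quantile -0.32, median -0.066, bright probes -0.021, normexp -0.25, authors' table -0.32, common limit -0.33), Abcc1 (mean over probes 0.34) and Abcg5 (common limit 0.47). Leaving out arrays or a line, with no block, gave changes after halofuginone from -4.13 to 2.79 for Abca15, -1.05 to 1.64 for Abcb1b, -3.48 to 0.24 for Abcc2, -1.02 to 0.19 for Abcc5 and -0.60 to 0.37 for Abcg2. With 1 array left out and no block, such a change holds part of the difference between the lines. Within the lines Abcc2 (-2.08 in K5, on a dim reading, and -1.16 in K6) and Abcc5 (-0.33 and -0.50) were lower in both. Abca15, Abcb1b and Abcg2 went opposite ways. K6 minus K5 ranged from -2.06 to 2.07 for Abca15, -1.90 to 0.39 for Abca2, -0.72 to 1.19 for Abca3, -1.05 to 0.93 for Abca4, -1.31 to 0.70 for Abcb8, -0.55 to 0.47 for Abcc1, -2.77 to 0.16 for Abcc3, -0.71 to 0.46 for Abcc4, -1.69 to 0.64 for Abcd4, -0.42 to 1.24 for Abce1 and -2.27 to 1.28 for Abcg5. The K6 minus K5 fits with 1 array left out had no treatment term, so these differences hold part of the halofuginone change. With treatments matched, Abca3 gave 0.35 between the control arrays and 0.12 between the halofuginone arrays. Abcc1, Abcc3, Abcd4 and Abce1 also kept the same sign under both treatments, and the other genes of this list did not. With 3 arrays the lone array of a group is assumed to vary like the others.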
